A study of Mus musculus with 6 samples.

Results

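The genes described here are 8 markers of hormone-sensing luminal cells, taken by name from the 54232 genes in the count files: the receptor genes Esr1, Pgr and Prlr, the transcription factor genes Foxa1, Gata3 and Tbx3, the transcriptional coactivator gene Cited1 and the paracrine signal gene Tnfsf11. The members were chosen for their known function, and all 8 were found by symbol. They were measured by RNA-seq in 6 libraries from tumors of NIC+ mice, 3 of genotype CdGAP wt/wt (wt1, wt2 and wt3) and 3 of genotype CdGAP fx/fx (fx1, fx2 and fx3). NIC denotes a transgene with the mammary-active MMTV promoter before activated Neu (ErbB2) and Cre recombinase on 1 transcript, so all 6 tumors carry the oncogene and Cre. The fx/fx animals in addition carry alleles of Arhgap31, the gene of the GTPase-activating protein CdGAP, that Cre can recombine in the mammary epithelial cells that express the transgene. Stromal and immune cells without Cre keep the gene. The labels give neither age nor stage, and do not state that each library came from a separate animal. The p-values therefore cover the spread among libraries, which may not be that among animals.

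In the mammary epithelium a minority of luminal cells carry the receptors for estrogen (Esr1), progesterone (Pgr) and, with other luminal cells, prolactin (Prlr). Foxa1 opens chromatin for the estrogen receptor, Gata3 maintains luminal identity, and Cited1 is a coactivator of the estrogen receptor. Progesterone acts on neighbouring cells through secreted signals, among them RANKL, the product of Tnfsf11, and Wnt4. Tumors driven by ErbB2 in mice are generally regarded as luminal and poor in hormone receptors. The comparison asks whether these genes differ between tumors with and without the recombinable CdGAP alleles.

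Values of 3 libraries are given in the order wt1, wt2, wt3 and fx1, fx2, fx3 throughout. Library totals ran from 36732137 to 53606276 counts of read pairs. Arhgap31 measured between 433 and 664 CPM (the standard count unit corrected for library size, here with TMM scaling) in wt/wt and between 44.1 and 156 in fx/fx, so the targeted gene was lower in every library labelled fx/fx. Its log2 fold change was -2.38 (edgeR adjusted p = 0.153, DESeq2 adjusted p = 3.2e-05), so even the targeted gene did not pass by edgeR. The tumors carried the luminal markers Epcam (1543 to 2177 CPM), Krt8 (533 to 861 CPM) and Krt18 (679 to 1211 CPM). The luminal markers Krt19 (1.48 to 2.55 CPM across wt/wt, 3.76 to 5.65 across fx/fx) and Cldn4 (4.54 to 12.4 and 13.5 to 137) were scarcer. The basal keratin gene Krt5 stayed at or below 1.67 CPM, and was higher in fx/fx (0.156 to 0.371 against 0.750 to 1.67 CPM). Acta2, also on the basal or myoepithelial list, measured 14.8 to 20.9 CPM across wt/wt against 22.1 to 48.5 across fx/fx. Over all genes, edgeR's quasi-likelihood test with Benjamini-Hochberg adjustment called 0 of 16752 at an adjusted p under 0.05 (0%). An unadjusted p under 0.05 was reached by 2381 genes, 14.2% of those tested. DESeq2 called 831 of the 16717 genes to which it gave an adjusted p (4.97%), and the libraries of the 2 genotypes did not overlap for 19.7% of the genes tested.

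Sequence upstream of a gene's start is shown for the members whose values separated the genotypes (Esr1, Tnfsf11) or 1 library from all others (Pgr). RefSeq on GRCm38.p6 gave 12 starts for 7 of the 8 members, and Tbx3 was not matched. Each sequence is the 250 bases before the start, 5′ to 3′ on the gene's strand. Capitals mark a match on either strand to 1 of 5 motifs searched: the estrogen receptor half-site GGTCA, the GATA motif AGATAA, the forkhead motif TGTTTAC, the progesterone receptor half-site TGTTCT and the STAT5 motif TTCNNNGAA, which is palindromic. Esr1 has 2 starts, at chr10:4611739-4611988 and chr10:4709908-4710157 on the plus strand. Pgr lies at chr9:8899583-8899832 on the plus strand and Tnfsf11 at chr14:78308044-78308293 on the minus strand.
Esr1, distal start: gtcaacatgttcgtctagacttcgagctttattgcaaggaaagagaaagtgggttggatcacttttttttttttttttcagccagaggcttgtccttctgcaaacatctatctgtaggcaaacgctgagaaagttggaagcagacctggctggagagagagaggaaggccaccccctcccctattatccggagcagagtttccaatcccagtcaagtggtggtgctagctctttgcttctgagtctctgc
Esr1, proximal start: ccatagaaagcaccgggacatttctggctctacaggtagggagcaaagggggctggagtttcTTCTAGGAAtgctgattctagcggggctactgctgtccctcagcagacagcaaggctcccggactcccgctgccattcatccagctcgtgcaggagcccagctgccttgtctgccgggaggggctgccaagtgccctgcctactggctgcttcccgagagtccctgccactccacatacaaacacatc
Pgr: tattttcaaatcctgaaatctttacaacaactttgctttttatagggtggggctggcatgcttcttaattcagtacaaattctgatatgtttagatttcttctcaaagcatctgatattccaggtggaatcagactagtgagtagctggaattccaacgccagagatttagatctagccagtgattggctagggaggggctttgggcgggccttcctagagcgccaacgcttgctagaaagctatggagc
Tnfsf11: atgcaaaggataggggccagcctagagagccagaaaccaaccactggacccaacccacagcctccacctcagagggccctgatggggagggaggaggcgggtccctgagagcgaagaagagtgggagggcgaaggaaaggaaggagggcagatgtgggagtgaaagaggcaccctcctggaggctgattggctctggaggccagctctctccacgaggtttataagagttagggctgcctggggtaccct

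These 4 windows held 1 match, to the STAT5 motif, at -188 relative to the proximal Esr1 start. Of all 32851 RefSeq windows of this length, 35.2% held the estrogen receptor half-site, 16.1% the progesterone receptor half-site, 9.99% the GATA motif, 7.02% the STAT5 motif and 3.17% the forkhead motif. Among the other members, the half-site GGTCA was found upstream of Gata3, of Foxa1 and of 2 of the 3 Cited1 starts. A forkhead match stood at -141 relative to the start of Foxa1 itself. One Prlr start had a forkhead match at -215, a STAT5 match at -110 and a progesterone receptor match at -12. The matches describe the letters of these windows only.

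Levels per gene length separated the members into 2 abundant and 6 scarce transcripts. On a TPM scale (counts per kilobase of exon, scaled to the same sum in each library), Gata3 measured 225 ± 16.5 in wt/wt and 191 ± 51.9 in fx/fx (SD, n = 3 each), at the 97.1st percentile of protein-coding genes by its median over libraries. Prlr followed with 28.4 ± 3.39 and 39.4 ± 13.9 TPM, at the 75.8th percentile. Gata3 and Prlr did not overlap in any library, nor did Prlr and the next gene, Esr1. Esr1 measured 1.37 ± 0.789 TPM in wt/wt and 4.09 ± 1.02 TPM in fx/fx. Tbx3, Cited1, Foxa1, Pgr and Tnfsf11 followed in order of their medians, 2.13, 1.10, 0.734, 0.235 and 0.148 TPM, and each overlapped its neighbour in this order across libraries. The tumors combined a high level of the luminal factor Gata3 with a level of Foxa1 between 0.0700 and 1.35 TPM, and with Pgr at or below 0.266 TPM in 5 of the 6 libraries.

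**Figure D1:**
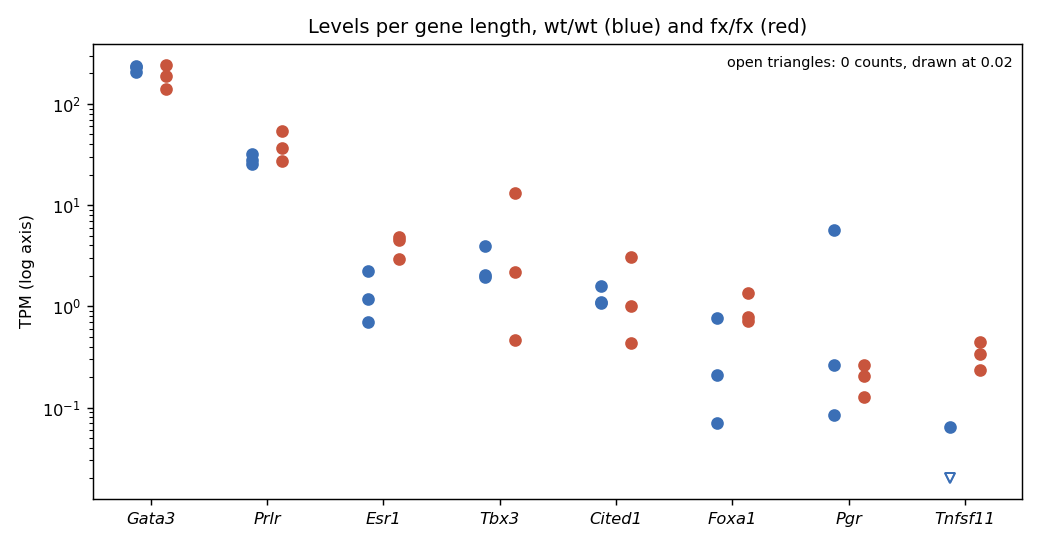
TPM on a log axis for the 8 genes, ordered by the median over the 6 libraries; each point is 1 library, blue for wt/wt and red for fx/fx, and the open triangle stands for the 2 wt/wt libraries with 0 counts of Tnfsf11. Gata3 and Prlr stand clear above the other 6 genes, and Pgr has 1 wt/wt library at 5.74 TPM.

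Among the receptors, Esr1 (ENSMUSG00000019768, chromosome 10, 4611593 to 5005614, plus strand, GRCm38), which encodes estrogen receptor alpha, had the smallest p of the 7 members tested. It stood at 9.37 (wt1), 2.73 (wt2) and 4.98 CPM (wt3) against 17.9 (fx1), 11.8 (fx2) and 21.0 CPM (fx3), on 122 to 949 counts a library. Every fx/fx library lay above every wt/wt library, and the gap between wt1 and fx2 was the narrowest. The mean was 2.96-fold higher in fx/fx, at 16.9 ± 4.67 against 5.69 ± 3.38 CPM (SD, n = 3 each). The edgeR log2 fold change was 1.57 (SE 0.47) with an adjusted p of 0.229, which did not pass, while DESeq2 gave an adjusted p of 0.0297. The DESeq2 call was kept without wt1 (adjusted p = 0.000337) or fx2 (adjusted p = 0.0183) and lost without wt2, wt3, fx1 or fx3, where the adjusted p reached 0.162. In bulk tumors, more cells that express a gene and more RNA per cell cannot be told apart.

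Stromal cells can also carry Esr1, and fibroblast markers were higher in fx/fx as well. Of the 9, DESeq2 called 5, beside 4.97% of all genes, and edgeR 0. An unadjusted edgeR p under 0.05 was reached by 8 of the 9, beside 14.2%, and 6 were separated, beside 19.7%. The 9 fibroblast markers summed to 302 to 524 CPM across wt/wt against 813 to 1488 across fx/fx; 8 of the 9 were higher in fx/fx, none was at 0, and Pdgfra, a defining receptor of these cells, measured 11.4 to 17.4 CPM across wt/wt against 11.7 to 15.2 across fx/fx. Within fx/fx, the summed fibroblast level was highest in fx2, where Esr1 was lowest, and lowest in fx3, where Esr1 was highest. An order over 3 libraries is a description only and was not tested. The 7 adipocyte markers summed to 35.7 to 62.9 CPM across wt/wt against 73.2 to 199 across fx/fx, with all 7 higher, none at 0 and the highest sum again in fx2. The part of these cells in the Esr1 difference was not tested. Relative to 8 luminal epithelial genes (Epcam, Krt8, Krt18, Krt19, Cdh1, Cldn3, Cldn4, Cldn7), Esr1 was 1.26 log2 units higher in fx/fx. The genotypes did not overlap on this ratio either (exact permutation test, 2-sided, unadjusted p = 0.1). That is the lowest value possible with 3 libraries a group. DESeq2 called Krt19 and Cldn4 among the 8 reference genes higher as well; against Krt8 and Krt18 alone the Esr1 difference was 1.66, with the same p of the permutation test.

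The genes around Esr1 did not share its higher level. The 45 tested protein-coding genes within 10 Mb stood at medians of -0.50, -0.01 and 0.07 across fx/fx, in log2 units from the wt/wt mean. In fx1 the median over chromosome 10 was -0.58, while Esr1 itself stood 1.82 above its wt/wt mean in that library.

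Pgr (ENSMUSG00000031870, chromosome 9, 8899833 to 8968611, plus strand), which encodes the progesterone receptor and is a textbook target of estrogen signalling, was high in a single library. It stood at 0.222 (wt1), 14.1 (wt2) and 0.699 CPM (wt3) against 0.659 (fx1), 0.321 (fx2) and 0.558 CPM (fx3). The library wt2 held 632 counts against 10 to 35 in the others, and without it the genotypes overlapped closely. The edgeR log2 fold change was -3.27 (SE 1.43, adjusted p = 0.360) and became 0.16 without wt2, with an adjusted p of 0.957. DESeq2 gave no p for the gene with all libraries. It called Pgr lower without wt1 (adjusted p = 0.00877) or without wt3 (adjusted p = 0.0374), fits in which wt2 was 1 of 2 wt/wt libraries. The tumor with the most Pgr was the one with the least Esr1 (2.73 CPM) and the least Foxa1 (0.0670 CPM). The 49 genes within 10 Mb of Pgr had a median of -0.07 in wt2 relative to the wt/wt mean, against 3.33 for Pgr.

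Prlr (ENSMUSG00000005268, chromosome 15, 10177238 to 10349180, plus strand), the prolactin receptor gene, was the most abundant of the 3 receptors. It stood at 132 (wt1), 141 (wt2) and 120 CPM (wt3) against 242 (fx1), 123 (fx2) and 179 CPM (fx3). The libraries fx1 and fx3 lay above all of wt/wt, whereas fx2 lay among them. The log2 fold change was 0.47 (SE 0.26, edgeR adjusted p = 0.456). The estimate was 0.19 without fx1 and 0.69 without fx2, and it passed in neither fit. Relative to the luminal epithelial genes the difference was -0.02 (exact 2-sided permutation p = 1). Against Krt8 and Krt18 alone it was 0.38 (exact 2-sided permutation p = 0.7). One same-strand gene model overlaps Prlr, at no more than 0.0223 CPM in any library. The 44 neighbours within 10 Mb had medians of 0.03, 0.09 and 0.04 across fx/fx, where Prlr stood at 0.89, -0.09 and 0.45.

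**Figure D2:**
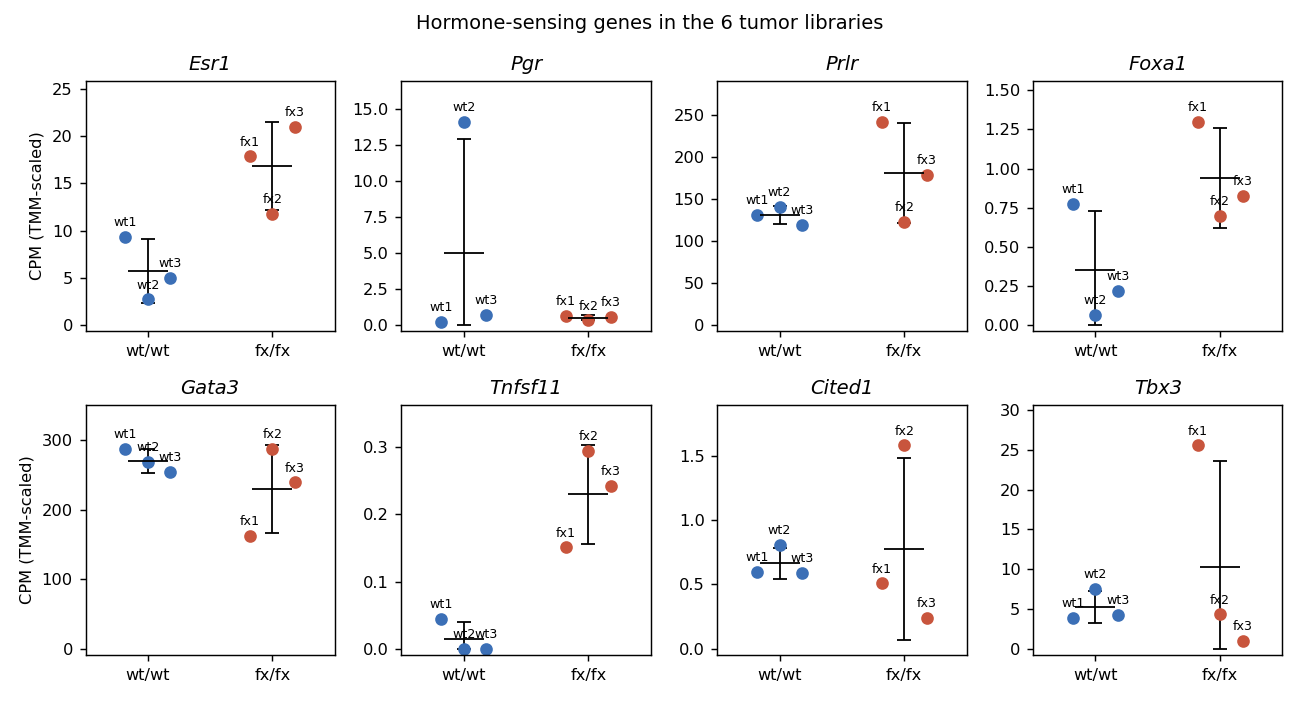
CPM of each of the 8 genes, on a linear axis that differs between panels; points are single libraries, the horizontal bar is the mean and the whiskers are 1 SD (n = 3 per genotype), with the lower whisker drawn to 0 at most. Esr1 and Tnfsf11 are separated between the genotypes, Pgr is high in wt2 only, and Tbx3 in fx1.

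Of the transcription factors, Gata3 (ENSMUSG00000015619, chromosome 2, 9857078 to 9890034, minus strand) was the most abundant. It stood at 288 (wt1), 268 (wt2) and 254 CPM (wt3) against 162 (fx1), 287 (fx2) and 239 CPM (fx3). The libraries fx1 and fx3 lay below the wt/wt range. The log2 fold change was -0.23 (SE 0.23, edgeR adjusted p = 0.703), and -0.05 without fx1. Gata3 is also a factor of T cells, whose 7 markers summed to 4.65 to 14.9 CPM across wt/wt against 3.06 to 9.72 across fx/fx, with none of them at 0, and their part in the Gata3 values was not tested. The 67 neighbours of Gata3 within 10 Mb had a median of 0.43 in fx2 relative to the wt/wt mean, where Gata3 itself was at 0.09, and of -0.12 in fx1, where Gata3 was at -0.73. Overlapping gene models on both strands are annotated at Gata3, the highest of them at 7.55 CPM.

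Foxa1 (ENSMUSG00000035451, chromosome 12, 57540628 to 57546916, minus strand) was scarce in every tumor. The wt/wt libraries held 35, 3 and 10 counts (0.776, 0.0670 and 0.218 CPM) and the fx/fx libraries 69, 26 and 34 (1.30, 0.696 and 0.825 CPM). Its lowest values were in wt2 and wt3, and wt1 lay within the fx/fx range. The log2 fold change was 1.41 (SE 0.77, edgeR adjusted p = 0.458). DESeq2 called it without wt1 (2.72, adjusted p = 0.0398) but not with all libraries (adjusted p = 0.451).

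Tbx3 (ENSMUSG00000018604, chromosome 5, 119670669 to 119684724, plus strand), a T-box repressor needed for mammary development, varied widely within fx/fx. It measured 3.92, 7.55 and 4.21 CPM across wt/wt against 25.5, 4.31 and 0.970 across fx/fx. Both the highest and the lowest library were fx/fx. The log2 fold change of 0.98 (SE 1.00, edgeR adjusted p = 0.714) turned to -0.99 without fx1. The 206 neighbours within 10 Mb had medians of 0.09, -0.06 and 0.05 in fx1, fx2 and fx3.

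Cited1 (ENSMUSG00000051159, chromosome X, 102247381 to 102252181, minus strand) was low throughout, at 0.598, 0.804 and 0.590 CPM across wt/wt against 0.508, 1.58 and 0.243 across fx/fx. The fx/fx libraries spanned the whole range, on 10 to 59 counts. The log2 fold change was 0.22 (SE 0.66, edgeR adjusted p = 0.918), and -0.80 without fx2.

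The paracrine signal gene Tnfsf11 (ENSMUSG00000022015, chromosome 14, 78277445 to 78308043, minus strand) was close to the limit of detection. It had 2, 0 and 0 counts in wt1, wt2 and wt3, and 8, 11 and 10 counts in fx1, fx2 and fx3. A count of 0 allows up to 3 counts, or 0.0670 CPM in wt2 and 0.0655 CPM in wt3. The fx/fx libraries held 0.151, 0.295 and 0.243 CPM, above each wt/wt library. Pooled over libraries, the ratio of fx/fx to wt/wt was 14.6 (95% exact interval 3.70 to 126), from 29 and 2 counts, and the interval covers counting error only. The gene did not pass the filter on low counts. Without that filter edgeR gave an adjusted p of 0.192. Pgr, whose product induces Tnfsf11, was at 14.1 CPM in wt2, a library in which Tnfsf11 had 0 counts. The 71 neighbours of Tnfsf11 within 10 Mb had medians of -0.01, -0.14 and 0.57 across fx/fx in log2 units from the wt/wt mean, against 1.79, 2.59 and 2.35 for Tnfsf11.

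Of the 8 members, 7 passed the filter on low counts. Among these, 5 were higher and 2 lower in fx/fx, with a median log2 fold change of 0.47 against 0.00 over all genes tested. At an unadjusted edgeR p under 0.05 there was 1 member of 7 (Esr1), beside the 14.2% of all genes given above, and DESeq2 called the same gene, beside 4.97%. Esr1 was also the only 1 of the 7 with separated genotypes, beside 19.7%. A count of 1 in 7 is close to the share of all genes at an unadjusted p under 0.05 and below the share of separated genes.

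The ratio to the 8 luminal epithelial genes was compared for all 8 members, with exact 2-sided permutation tests that cannot go below p = 0.1. The p-values of these tests are printed unadjusted. Adjusted over the 8 members, the lowest was 0.4, for Esr1 and Tnfsf11. Tnfsf11 was 1.81 log2 units higher in fx/fx and separated (exact p = 0.1), with a prior count of 2. It was 3.17 with a prior count of 0.5, since 2 wt/wt libraries held 0 counts, so its size is not fixed by these data. Foxa1 was 1.29 higher with overlap (exact p = 0.3). Gata3 was at -0.71 (exact p = 0.2), Pgr at -1.83 (exact p = 0.4), Cited1 at -0.58 (exact p = 0.6) and Tbx3 at -0.50 (exact p = 0.7), all with overlap. Against Krt8 and Krt18 alone, Gata3 was at -0.31 and separated (exact p = 0.1), while Cited1 was at -0.18 (exact p = 0.9) and Tbx3 at -0.10 (exact p = 1). Without wt2 the Pgr ratio was -0.26 (exact p = 0.8).

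**Figure D3:**
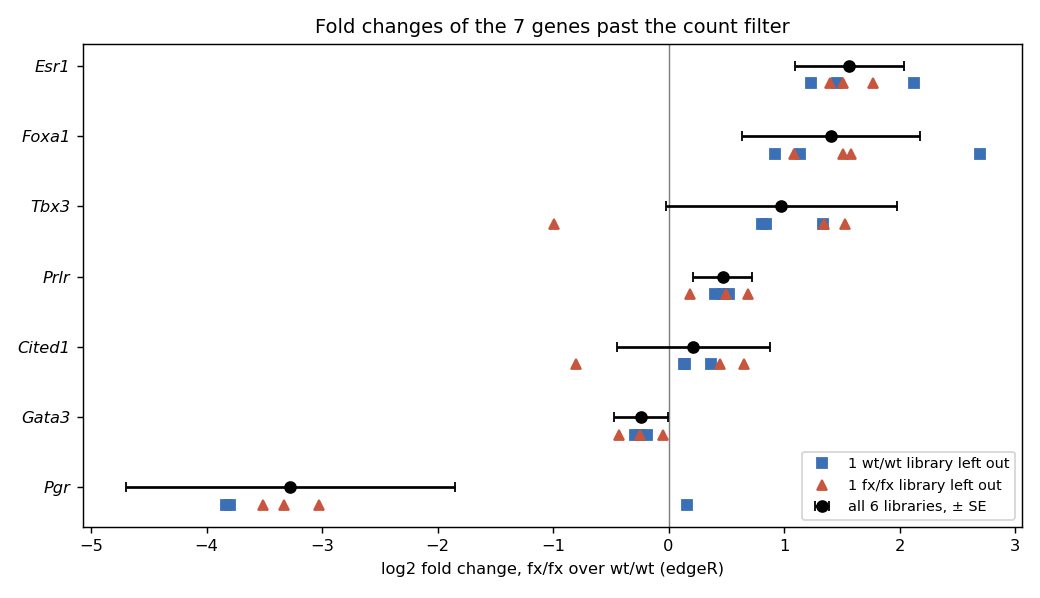
log2 fold change of fx/fx over wt/wt for the 7 genes past the count filter; black points are the edgeR estimates with their SE, blue squares and red triangles the estimates with 1 wt/wt or 1 fx/fx library left out. Pgr crosses to 0.16 without wt2, Tbx3 to -0.99 without fx1 and Cited1 to -0.80 without fx2, while Esr1 stays between 1.23 and 2.13.

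The pattern of a member over the 6 libraries was also compared with that of 10929 protein-coding genes, by the largest difference in any library between the 2 genes' log2 CPM, each centred on its mean. Closest to Esr1 were Qsox1, a sulfhydryl oxidase (0.48 log2 units), Hpcal1, a calcium sensor (0.50), and Hsd17b7, an enzyme of estradiol and cholesterol synthesis (0.52). Hsd17b7 measured 25.5, 9.92 and 20.2 CPM across wt/wt against 37.5, 28.4 and 78.3 across fx/fx, and like Esr1 it was lowest in wt2 and highest in fx3. Closest to Prlr were App, the amyloid precursor protein gene (0.08), Lrrc8e, a subunit of volume-regulated anion channels (0.08), and Asah1, acid ceramidase (0.12). App measured 1131, 1203 and 1075 CPM across wt/wt against 2097, 1001 and 1441 across fx/fx, with the same order of libraries as Prlr apart from fx2, which for App lay below all of wt/wt. For Pgr no gene came nearer than 1.54 log2 units (Tnni3, a troponin), followed by Fam20c, a secretory pathway kinase (1.66), and Zfp239 (1.72), all highest in wt2. Tnni3 reached the minimum level for this search through wt2 (12.4 CPM), and was between 1.05 and 2.45 CPM in the other libraries.

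Other receptors did not pass by either test. Of 17 further nuclear hormone receptor genes, all 17 were tested, 14 were higher and 3 lower, with a median of 0.29, beside 49.6% of all genes tested that were higher. Both edgeR and DESeq2 called 0. An unadjusted edgeR p under 0.05 was reached by 3 of the 17, near the 14.2% of all genes. Rarg, a retinoic acid receptor, measured 46.6 ± 5.73 CPM across wt/wt against 68.3 ± 8.66 across fx/fx (SD, n = 3 each; log2 fold change 0.55, edgeR adjusted p = 0.256). Vdr, the vitamin D receptor, was lower in every fx/fx library, at 68.9, 56.0 and 45.9 CPM across wt/wt against 11.3, 36.8 and 36.8 across fx/fx (log2 fold change -1.01, edgeR adjusted p = 0.348). Esrrb, an orphan receptor related to Esr1, was at most 0.584 CPM in any library (edgeR adjusted p = 0.333). Esrrb passed the filter on low counts through its fx/fx libraries alone, so its place among the 14 higher genes follows from the filter. Of 9 membrane receptors of hormones, which are receptors of peptide hormones apart from Gper1, the G protein-coupled estrogen receptor, Lhcgr, Fshr and Calcr had 0 counts in all libraries. Of the 6 tested, 5 were higher, with a median of 0.30. Pth1r, the parathyroid hormone receptor, was the only 1 of the 6 separated, beside 19.7% of all genes (0.371 to 0.576 against 0.849 to 1.26 CPM; edgeR adjusted p = 0.260). Insr and Igf1r, the receptors of insulin and its growth factor relative, had log2 fold changes of 0.30 and -0.73 and overlapped between genotypes.

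Cofactors and partner factors of the estrogen receptor were divided too, with 11 of 19 higher and 8 lower and a median of 0.06. Zfp703, a zinc finger corepressor of luminal cells, was the clearest of them. It measured 9.82, 12.4 and 11.2 CPM across wt/wt against 23.1, 22.1 and 21.1 across fx/fx, 1.99-fold higher with narrow spread in both genotypes. Its edgeR adjusted p was 0.171, and the DESeq2 adjusted p of 0.000330 was at most 0.0274 with any 1 library left out. Tle3, a Groucho corepressor, and Pelp1, a coactivator, were lower in every fx/fx library, with log2 fold changes of -0.60 and -0.59 and edgeR adjusted p of 0.305 and 0.321. Of the 19, 2 were separated higher (Zfp703 and Ep300) and 2 lower, beside 19.7% of all genes in either direction. DESeq2 called 1, beside 4.97%. An unadjusted edgeR p under 0.05 was reached by 1 higher and 2 lower, beside 14.2%. Each share was close to that of all genes.

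Estrogen receptor target genes were divided in direction. Of 18 listed, Pgr among them, Greb1, Tff1, Tff3, Pdzk1 and Agr2 were below 1 CPM in every library and were not tested, and of the 13 tested 5 were higher and 8 lower, with a median of -0.25. Igfbp4, an IGF-binding protein also made by stroma, measured 29.5, 24.3 and 25.7 CPM across wt/wt against 117, 77.9 and 33.8 across fx/fx (log2 fold change 1.53; adjusted p = 0.210 by edgeR and 0.0199 by DESeq2). Sgk3, a kinase, measured 9.02, 7.39 and 9.39 CPM across wt/wt against 53.4, 15.3 and 13.1 across fx/fx (log2 fold change 1.66; adjusted p = 0.247 by edgeR and 0.0448 by DESeq2). Both were separated, the only 2 of the 13 tested, which is below the 19.7% of all genes. DESeq2 called the same 2, beside 4.97%. Both lost the DESeq2 call without fx1 or any single wt/wt library. Xbp1, a secretory pathway factor, was lower in fx1 (406 CPM) and fx3 (941 CPM) than in wt/wt (1656 to 2109 CPM), but not in fx2 (1971 CPM), and did not pass (edgeR adjusted p = 0.525).

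Among progesterone-induced signals and RANK pathway genes, which hold Tnfsf11 and 2 more untested genes, 6 of 8 tested were higher and the median was 0.67. Of the 8, 3 were separated, beside 19.7% of all genes. DESeq2 called 2, beside 4.97%, and edgeR 0. Tnfrsf11b, the decoy receptor osteoprotegerin that binds RANKL, measured 0.443, 0.603 and 0.437 CPM across wt/wt against 10.8, 1.47 and 1.53 across fx/fx. Its log2 fold change was 3.21 (SE 0.86; edgeR adjusted p = 0.210, DESeq2 adjusted p = 0.00287), and the DESeq2 call was lost without fx1 (adjusted p = 0.0595). Wnt4, the Wnt ligand that progesterone induces, stayed below 1 CPM, at 0.0443, 0.0447 and 0.175 CPM across wt/wt against 0.584, 0.562 and 0.340 across fx/fx (log2 fold change 2.45; adjusted p = 0.196 by edgeR and 0.0735 by DESeq2). Wnt4 passed the filter on low counts through its fx/fx libraries alone. Its place among the higher and the separated genes therefore follows from the filter. Id4, an inhibitor of helix-loop-helix factors, was separated at 0.228 ± 0.0336 against 0.766 ± 0.136 CPM (SD, n = 3 each; edgeR adjusted p = 0.184, DESeq2 adjusted p = 0.0442), a DESeq2 call lost with any library left out. Tnfrsf11a, the RANK receptor gene, measured 25.6 to 52.6 CPM across wt/wt against 45.9 to 77.7 across fx/fx and overlapped. Basal markers, whose cells also express Id4, summed to 22.3 to 27.4 CPM across wt/wt against 33.0 to 62.5 across fx/fx, with 7 of 8 higher and none at 0, and their part in these values was not tested.

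Prolactin signalling genes, Prlr included, showed no common direction: 6 of 12 were higher, 6 lower, and the median was 0.02. An unadjusted edgeR p under 0.05 was reached by 0 of the 12, beside 14.2% of all genes. Jak2, the kinase bound to the receptor, measured 51.2 ± 9.81 against 51.0 ± 11.5 CPM, and the transcription factor genes Stat5a and Stat5b had log2 fold changes of -0.35 and -0.26 (SD, n = 3 each; edgeR adjusted p between 0.532 and 0.994). Socs3, a feedback inhibitor, and Ptpn1, a tyrosine phosphatase, had the smallest p in the list, with log2 fold changes of 1.06 and 0.54 and edgeR adjusted p of 0.400 and 0.403. All 12 overlapped between the genotypes, beside 19.7% of all genes tested that were separated.

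Further luminal hormone-sensing markers were higher in 6 of 7 tested, among them Wnt4, which passed the filter through fx/fx alone, with a median of 1.11. That median is the fold change of Wnt5a, a Wnt ligand, which was at 9.88, 12.9 and 11.0 CPM across wt/wt against 68.1, 2.62 and 2.11 across fx/fx. Only fx1 was above wt/wt, the other fx/fx libraries lay below it, and limma-voom gave Wnt5a -0.48 (edgeR adjusted p = 0.740). Beside Wnt4, Cd24a, a surface marker of luminal cells, measured 165, 79.7 and 150 CPM across wt/wt against 141, 349 and 487 across fx/fx, with fx1 inside the wt/wt range (edgeR adjusted p = 0.278). Msx2, a homeobox factor, measured 0.0665, 0.0447 and 1.16 CPM across wt/wt against 6.31, 0.295 and 1.70 across fx/fx (edgeR adjusted p = 0.437). Enzymes of local steroid supply were higher in 9 of 10 tested, beside 49.6% of all genes, with a median of 0.54. Cyp19a1, the aromatase that makes estrogens, had 0 counts in all 6 libraries. DESeq2 called 3 of the 10, beside 4.97% of all genes, and edgeR 0. Separated genotypes were found for 4 of the 10, Hsd17b7 among them, beside 19.7%. Sult1e1, which inactivates estrogens by sulfation, measured 0.111, 0.156 and 0.0873 CPM across wt/wt against 0.508, 0.295 and 1.48 across fx/fx (DESeq2 adjusted p = 0.0400, edgeR adjusted p = 0.209). Sult1e1 passed the filter on low counts through its fx/fx libraries alone. Its place among the higher and the separated genes therefore follows from the filter. Hsd11b1, which regenerates active glucocorticoid, was 3.08-fold and Cyp1b1, which hydroxylates estrogens, 2.88-fold higher, both separated (DESeq2 adjusted p = 0.0191 and 0.0224, edgeR adjusted p = 0.212 and 0.220). Their DESeq2 calls were kept without wt1 or fx3 and lost with any other library left out, and that of Sult1e1 was kept without fx2 alone. Hsd11b1 and Cyp1b1 are also genes of fibroblasts and adipocytes, and in fx/fx both were highest in fx2, as were the sums of those markers given with Esr1. The part of these cells in the values of Hsd11b1, Cyp1b1 and Igfbp4 was not tested.

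**Figure D4:**
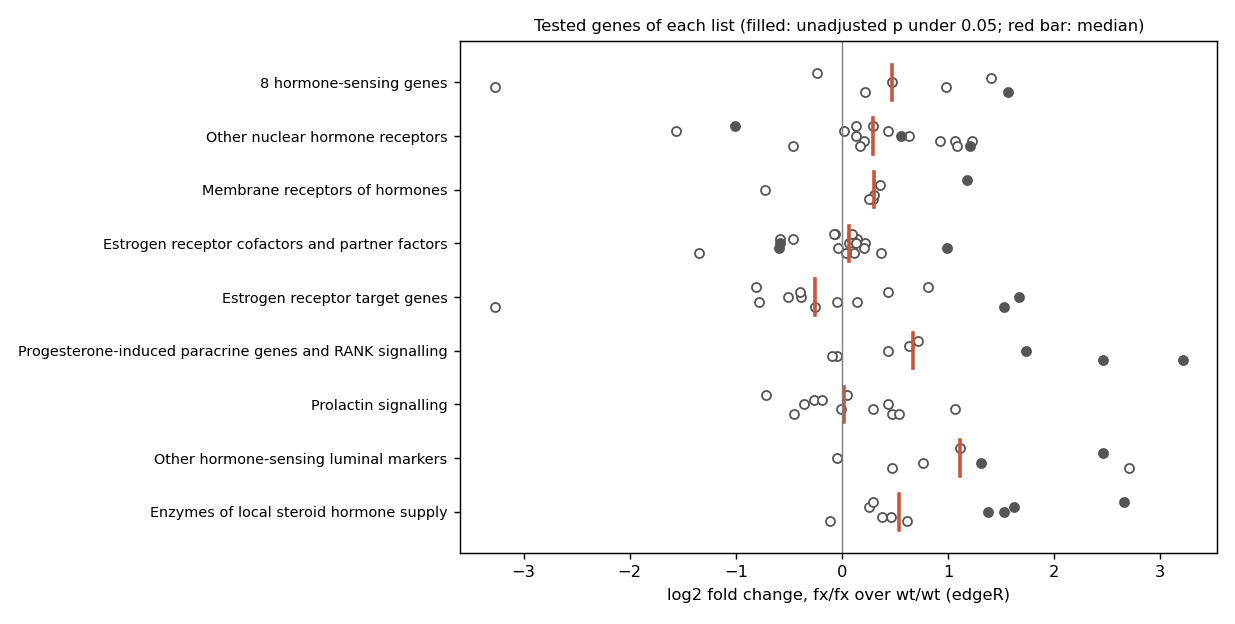
edgeR log2 fold change of fx/fx over wt/wt for each tested gene of the 8 members and of 8 related lists; filled points have an unadjusted p under 0.05 and red bars mark the list median. Medians run from -0.25 for estrogen receptor targets to 1.11 for other hormone-sensing markers (the value of Wnt5a, high in fx1 only), against 0.00 over all genes tested.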

How the data were processed

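Total RNA of 6 tumors was purified with TRIZOL and RNeasy columns and made into Illumina libraries, per the labels' protocols. The deposited values are raw counts of read pairs per gene, made by the authors with featureCounts 1.6.0 (both ends aligned, no chimeric pairs, strand option 2) on the Ensembl release 93 annotation of GRCm38, per the file headers. The submitters' processing notes name STAR 2.5.1b, featureCounts 1.4.6 and DESeq2 1.12.3. The option to count reads with several alignments was not set, per the file headers. All 54232 rows named a gene, and GENCODE M21 gave symbols for 54165.

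Genotypes were compared over all genes with edgeR 4.0.16 in R 4.3.3 (filterByExpr, TMM, quasi-likelihood test with robust=TRUE, 2-sided, Benjamini-Hochberg over 16752 genes, threshold 0.05). Log2 values for ratios, neighbours and patterns used a prior count of 2. DESeq2 1.42.0, limma-voom (limma 3.58.1), RLE size factors, no filter, a replicate block and leaving out each library were alternatives. DESeq2 with a library left out was added after the data were seen. The fits were tested on simulated data. At these depths 3 counts equal 0.0560 to 0.0817 CPM before TMM scaling.

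The members, lists and tests were chosen with earlier results of these data known. Named genes were the 8 members, Arhgap31, of each list the 3 with the smallest p, and the 3 genes nearest (averaging 5 CPM or more in 1 genotype) in pattern to Esr1, Pgr and Prlr. Names outside that rule (such as Xbp1, Wnt5a, Tnfrsf11a, Jak2, Stat5a, Stat5b, Cyp19a1 and the milk protein genes) were chosen after their values were seen. Replicate numbers were not shown to pair the libraries. Deviations of same-numbered libraries correlated at -0.085, -0.095 and 0.057, and those of differently numbered libraries at -0.222 to 0.279. With 3 libraries a genotype, such values cannot exclude a pairing.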

Additional observations from a re-analysis of the deposited data

How the results depend on the processing

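With 3 libraries a genotype, the number of calls depended on the tool: edgeR called 0 genes with TMM, with RLE factors and with a replicate block, as did limma-voom. The edgeR test called 38 without the count filter, and between 0 and 2 with 1 library left out. DESeq2 called 831, and 406, 599 and 563 without wt1, wt2 or wt3, and 525, 1738 and 850 without fx1, fx2 or fx3. Under the replicate block no member was called, Pgr was at -1.11, and Tbx3 (-0.19) and Cited1 (-0.13) changed sign; same-numbered libraries were not shown to be pairs. By limma-voom Cited1 was at -0.19, Tbx3 at 0.02 and Pgr at -1.38. With DESeq2, Esr1 passed at 1.55. With a library left out, edgeR gave Esr1 1.23 to 2.13, Foxa1 0.92 to 2.69, Pgr -3.84 to 0.16, Cited1 -0.80 to 0.66 and Tbx3 -0.99 to 1.53. DESeq2 then gave Esr1 1.22 to 2.13 (1.75 without fx2), Foxa1 0.91 to 2.72, Pgr -3.85 to 0.15 (-3.81 without wt3), Cited1 -0.82 to 0.65 and Tbx3 -0.98 to 1.52. The cause of these changes was not tested beyond the library left out. Gata3 (-0.43 to -0.05) and Prlr (0.19 to 0.69) kept their direction in every edgeR fit with 1 library left out. Relative to Krt8 and Krt18 alone, Prlr was at 0.38 in place of -0.02, Gata3 at -0.31, Cited1 at -0.18 and Tbx3 at -0.10. Relative to the 8 luminal genes with a library left out, Prlr ran from -0.22 to 0.16, Cited1 from -1.33 to 0.0415 and Tbx3 from -1.67 to 0.67, whereas Esr1 (0.73 to 1.71), Foxa1 (0.51 to 2.04) and Tnfsf11 (1.55 to 2.14, and 3.17 with a prior count of 0.5) stayed above 0, and Gata3 (-0.97 to -0.45) and Pgr (-3.03 to -0.26) below. List medians stayed within the spread of the libraries in 51 of 63 alternatives. The list of progesterone and RANK genes moved most, to 0.40 without fx1, 1.39 without wt3 and 1.32 without the filter. Tnfsf11, Foxa1, Cited1 and, outside wt2, Pgr rest on fewer than 70 counts a library, which limits what can be said of them.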

Other observations

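Milk protein genes, which prolactin acting through Stat5 is known to induce, did not share 1 direction. Lalba, the alpha-lactalbumin gene, stood at 2568 (wt1), 1684 (wt2) and 1326 CPM (wt3) against 282 (fx1), 846 (fx2) and 25.6 CPM (fx3), so every fx/fx library lay below every wt/wt library (log2 fold change -2.27, SE 1.03; adjusted p = 0.380 by edgeR and 0.0986 by DESeq2). Csn3, the kappa-casein gene, measured 5556, 16028 and 2499 CPM across wt/wt against 13198, 13787 and 6014 across fx/fx and overlapped (edgeR adjusted p = 0.816). Elf5, the alveolar transcription factor, measured 263 to 343 CPM across wt/wt against 148 to 340 across fx/fx. None of the 3 passed by edgeR.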
